A study of Mus musculus with 9 samples.

Results

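The 10 genes described here (*Nes*, *Vim*, *Fabp7*, *Slc1a3*, *Sox2*, *Sox9*, *Pax6*, *Prom1*, *Glul* and *Ptprz1*) are known markers of radial glia. They were picked by name, with earlier results of these data known, and each was found through its Ensembl identifier in the annotation of GRCm38, so that they are 10 of the 51912 genes of the table. RNA of mouse midbrain dissected at E14.5, given in days of embryonic development, was sequenced in 9 libraries, 3 from wild-type embryos (*Nkx2.9*+/+), 3 from heterozygous embryos (*Nkx2.9*LacZ/+) and 3 from homozygous mutants (*Nkx2.9*LacZ/LacZ). The mice were of the C57Bl/6 strain, and no embryo was given a treatment. *Nkx2.9* is a homeobox gene of the mid-hindbrain region, and the targeted allele has lost its first exon to a LacZ reporter with a nuclear signal. *Nkx2.9*LacZ/+ embryos carry 1 such allele beside a normal copy, *Nkx2.9*LacZ/LacZ embryos carry it on both chromosomes, and it is a constitutive change that is not limited to a cell type. Each library pooled 2 midbrains. The labels do not say whether the libraries of a genotype came from separate litters. The paper's methods give 1 to 2 litters for its experiments in general, without assigning libraries to them. The p-values therefore measure the spread between these libraries. The question put to these genes is whether their RNA level in the midbrain differed with the number of LacZ alleles.

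Radial glia are the stem and progenitor cells of the embryonic brain. Their cell bodies line the ventricle, where they divide, and a long fibre reaches from there to the surface of the brain, along which newborn neurons migrate. They give rise to neurons first and to astrocytes and oligodendrocytes later, and many of their genes stay on in astrocytes. In the ventral midbrain the progenitors of dopaminergic neurons are cells of this kind. The markers belong to different machinery, namely the intermediate filaments of the fibre (*Nes*, *Vim*), lipid handling and the cell surface (*Fabp7*, *Prom1*, *Ptprz1*), uptake and conversion of glutamate (*Slc1a3*, *Glul*) and the transcription factors of progenitors (*Sox2*, *Sox9*, *Pax6*).

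The values are normalized counts, that is, reads counted on a gene and divided by a size factor of the library. The columns of the table carry a genotype and no replicate number, so that a library is referred to by its column. The label is LacZ/LacZ in columns 1 to 3, LacZ/+ in columns 4 to 6 and +/+ in columns 7 to 9. Reads counted on genes ranged from 1692963 in column 7 to 5942192 in column 8. Columns 4 and 7, with 2584074 and 1692963 reads, were also the libraries farthest from the rest. Over the 7500 genes with a mean of at least 100, the median distance of a gene from its median over libraries was 0.257 (log2) in column 4 and 0.155 in column 7, against 0.0676 to 0.0873 in the other libraries. The targeted gene, *Nkx2-9* in the annotation, had 0 to 7 reads per library, with normalized counts of 0, 1.40 and 1.47 in the +/+ columns, 0, 5.98 and 3.26 in the LacZ/+ columns and 3.01, 5.49 and 2.58 in the LacZ/LacZ columns. It was thus not lower in the libraries labelled LacZ/LacZ, and with so few reads, counted over the whole gene, it did not check the labels. Every genotype named below is that of the column label. Whether the labels of the +/+ and LacZ/LacZ columns are exchanged was not settled from the sources used here. If they are, the sign of every fold change of LacZ/LacZ over +/+ turns, and the values called LacZ/LacZ and +/+ change places. A comparison of LacZ/+ with +/+ then becomes a comparison with LacZ/LacZ, and the reverse. *Xist*, which is transcribed in female cells, was 4607 to 5182 in the 3 LacZ/LacZ columns and 14.52 to 4342 in the other 6, and 4 Y-linked genes summed to 0 to 2.26 and 0 to 1075. The Y-linked sums were 606 and 1058 in LacZ/+ columns 4 and 5, and 505 and 1075 in +/+ columns 8 and 9. In LacZ/+ column 6 and +/+ column 7 they were 3.26 and 0. The mix of female and male embryos thus differed between libraries and was partly aligned with genotype, with no male signal in the LacZ/LacZ columns. Its part in the results was not tested beyond a covariate, whose effect is given with the other alternatives. *Otx2*, a defining transcription factor of fore- and midbrain, was present at 205 to 329 in every library.

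All 10 markers had reads in all 9 libraries, from 50 reads of *Sox9* in column 7 to 2442 reads of *Ptprz1* in column 8, and all 10 were among the 16993 genes tested, which have a mean normalized count of at least 5. They lie on 8 chromosomes, with *Nes* and *Sox2* both on chromosome 3 and *Vim* and *Pax6* both on chromosome 2. No exon of 8 of them overlaps an exon of another gene. *Prom1* shares 424 bases with the antisense gene *Gm16401*, and *Glul* shares 116 bases with *Teddm2* on the other strand and 93 bases with the microRNA gene *Mir8114*. Whether the counting used strand is not given in the sources used here, so that the reads counted for *Prom1* and *Glul* in these stretches are uncertain.

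The stretch of DNA just before a gene's start often holds short motifs that general transcription factors recognise, and the RefSeq promoter table (GRCm38.p6) covers 9 of the 10 markers, all but *Sox9*. Searched on both strands of the 250 bases before the start in that table, the motif CCAAT was found for 7 of these 9 genes (*Fabp7*, *Glul*, *Pax6*, *Prom1*, *Slc1a3*, *Sox2* and *Vim*), and it was found for 37.5% of the 27025 genes in the table. TATAAA was found for *Slc1a3* and *Vim*, and for 14.3% of all genes. These are matches of letters, and no binding was measured. The start in that table is not always the start of the gene as printed in this report, which is that of the outermost annotated transcript. It lies 42 bases further in for *Fabp7*, and 384 and 296 bases further in for *Vim* and *Prom1*, whose windows are therefore inside the gene and are not shown although their matches are counted above. For *Sox2* it lies 410 bases before the annotated start. The windows of *Fabp7* and *Glul*, the 2 markers with the highest RNA level per length that keep at least 200 bases before the annotated start, are shown up to that start or the one in the table, whichever comes first, 5′ to 3′ on the strand of the gene, with the matches in capitals (ATTGG is CCAAT on the other strand). The first lies at chr10:57784673-57784880 (+) and holds CCAAT on the other strand with its first letter 84 and 14 bases before the annotated start. The second lies at chr1:153899679-153899928 (+), within an exon of *Teddm2* on the other strand, its last bases also in *Mir8114*, and holds CCAAT 128 and 65 bases before the annotated start.
Fabp7: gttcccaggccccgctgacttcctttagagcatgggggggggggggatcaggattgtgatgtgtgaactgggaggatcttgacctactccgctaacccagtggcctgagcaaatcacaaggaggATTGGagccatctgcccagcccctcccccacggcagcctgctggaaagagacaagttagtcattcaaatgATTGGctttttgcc
Glul: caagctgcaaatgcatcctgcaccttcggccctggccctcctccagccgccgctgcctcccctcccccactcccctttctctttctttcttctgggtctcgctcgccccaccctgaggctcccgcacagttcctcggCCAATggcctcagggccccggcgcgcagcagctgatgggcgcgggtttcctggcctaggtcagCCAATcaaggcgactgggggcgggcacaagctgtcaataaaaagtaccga

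The level of different genes can be compared only per length, and for this the mean normalized count over the 9 libraries was divided by the kilobases of exon. *Fabp7* stood far above the others at 782 per kilobase, higher than 99.1% of the genes tested, and *Vim* followed at 213. *Glul* at 125, *Ptprz1* at 112, *Nes* at 84.9, *Sox2* at 78.3 and *Slc1a3* at 69.4 formed a middle group, all above 82.0% of the genes tested. *Sox9* at 31.2, *Prom1* at 22.9 and *Pax6* at 13.9 were the lowest, the last below the middle of all genes, at the percentile 40.1. Within a library, *Fabp7* was above *Vim*, *Vim* above *Glul*, *Slc1a3* above *Sox9*, *Sox9* above *Prom1* and *Prom1* above *Pax6* in 9 of 9 libraries. Inside the middle group the order was less firm. *Glul* was above *Ptprz1* in 6 of 9 libraries, *Nes* above *Sox2* in 6, *Ptprz1* above *Nes* in 8 and *Sox2* above *Slc1a3* in 8. The order also depends on the length used. With the longest protein-coding transcript in place of all exons, *Fabp7* at 1111 and *Vim* at 460 kept the first places, *Ptprz1* at 197 passed *Glul* at 149, *Slc1a3* took the fifth place at 142, and *Sox9*, unchanged at 31.2, came below *Prom1* at 40.2 and *Pax6* at 36.8.

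**Figure D1:**
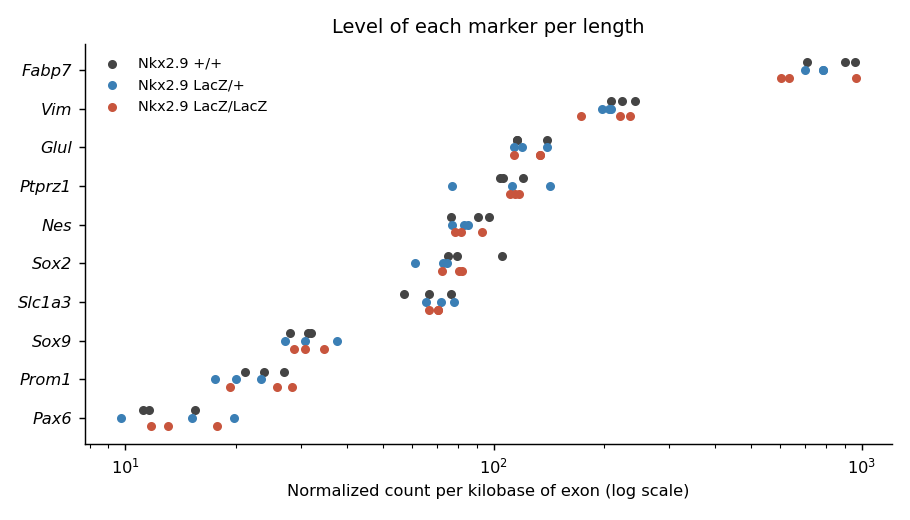
Normalized count per kilobase of exon (x axis, log scale) of each marker (y axis, ordered by mean), with a point for each of the 9 libraries, colored by genotype. *Fabp7* lies to the right of all others in every library, the 5 genes from *Glul* to *Slc1a3* overlap with their neighbours, and *Pax6* is the lowest.

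The intermediate filament genes were abundant and steady. *Nes* (ENSMUSG00000004891, chr3:87971078-87980451, + strand) encodes nestin, the filament protein by which neural progenitors are most often recognised. Its normalized counts were 623, 584 and 492 in the +/+ columns (columns 7, 8 and 9), 546, 494 and 534 in the LacZ/+ columns (4, 5 and 6) and 505, 598 and 524 in the LacZ/LacZ columns (1, 2 and 3). The 3 genotypes overlapped. The log2 fold change of LacZ/LacZ over +/+, fitted with limma, was -0.06 (95% confidence interval -0.33 to 0.21, exact permutation p = 0.8), and that of LacZ/+ over +/+ was -0.11 (-0.37 to 0.16, exact permutation p = 0.5). All permutation tests here are two-sided, and 0.1 is the smallest p that 3 libraries against 3 allow. *Vim* (ENSMUSG00000026728, chr2:13573927-13582826, + strand) encodes vimentin, which forms filaments together with nestin. It had 1148, 991 and 1062 in the +/+ columns, 991, 933 and 977 in the LacZ/+ columns and 1112, 1047 and 818 in the LacZ/LacZ columns. The LacZ/+ columns reached up to the lowest +/+ column, and the LacZ/LacZ columns held both a high and the lowest value. For *Vim* the log2 fold change was -0.11 (-0.38 to 0.15, exact permutation p = 0.6) in LacZ/LacZ and -0.14 (-0.41 to 0.13, exact permutation p = 0.2) in LacZ/+ over +/+. In bulk tissue, fewer radial glia and less RNA per radial glial cell cannot be told apart, for these and for the genes that follow.

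*Fabp7* (ENSMUSG00000019874, chr10:57784881-57788450, + strand) encodes the brain lipid-binding protein, a fatty acid carrier that radial glia make in large amounts. Its normalized counts were 1125, 888 and 1201 in the +/+ columns, 983, 979 and 879 in the LacZ/+ columns and 1204, 791 and 753 in the LacZ/LacZ columns. Columns 2 and 3 were the lowest of all 9 libraries, and column 1, of the same genotype, was the highest. The mean was 916 ± 249.8 (SD, n = 3) in LacZ/LacZ and 1071 ± 164 (SD, n = 3) in +/+, and the log2 fold change of -0.25 (-0.60 to 0.10) had an exact permutation p of 0.4 (limma adjusted p = 1.00). This comparison kept its direction whichever library was left out, but its size moved. Its log2 fold change was -0.46 without column 1 and -0.38 without column 8, both with an unadjusted limma p under 0.05, and -0.12 without column 3. The limma p adjusted over all genes tested was 1.00 without column 1 and 0.957 without column 8. LacZ/+ lay between the other genotypes, at -0.17 (-0.52 to 0.18, exact permutation p = 0.3) over +/+.

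Both cell-surface markers varied more between libraries than between genotypes. *Prom1* (ENSMUSG00000029086, chr5:43993620-44102032, - strand) encodes prominin-1, or CD133, a membrane protein of the protrusions on the ventricular side of progenitors. It had 194, 171 and 152 in the +/+ columns, 125, 143 and 167 in the LacZ/+ columns and 204, 186 and 138 in the LacZ/LacZ columns. The LacZ/+ mean of 145 ± 20.9 (SD, n = 3) was the lowest of the 3, and all 3 genotypes overlapped. The log2 fold change of LacZ/LacZ over LacZ/+ was 0.26 (-0.11 to 0.64, exact permutation p = 0.3). It was 0.43 without column 3, with an unadjusted limma p under 0.05 (adjusted p = 1.00). LacZ/+ over +/+ was -0.24 (-0.62 to 0.13, exact permutation p = 0.2), and LacZ/LacZ over +/+ was 0.02 (-0.36 to 0.40).

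*Ptprz1* (ENSMUSG00000068748, chr6:22875502-23052916, + strand), a receptor-type tyrosine phosphatase whose extracellular part is also secreted as the proteoglycan phosphacan, took 27.7% of the summed normalized count of the 10 genes. It had 1487, 1714 and 1515 in the +/+ columns, 1100.04, 2033 and 1597 in the LacZ/+ columns and 1575, 1670.1 and 1627 in the LacZ/LacZ columns. The lowest and the highest of the 9 values were both in the LacZ/+ genotype, in columns 4 and 5, and the LacZ/LacZ columns lay within the range of +/+. The SD was 467 in LacZ/+, 124 in +/+ and 47.8 in LacZ/LacZ. The genotype means of 1572, 1577 and 1624 differed by less than the SD of +/+, with log2 fold changes over +/+ of -0.04 (-0.39 to 0.32) for LacZ/+ and 0.05 (-0.31 to 0.40) for LacZ/LacZ. Without column 4 LacZ/+ was higher than +/+ by a log2 fold change of 0.20 (limma adjusted p = 0.844).

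The 2 glutamate genes differed little between genotypes. *Slc1a3* (ENSMUSG00000005360, chr15:8634124-8710764, - strand) encodes the glutamate transporter GLAST, which takes the transmitter up from outside the cell. It had 486, 571 and 656 in the +/+ columns, 561, 613 and 665 in the LacZ/+ columns and 571, 604 and 605 in the LacZ/LacZ columns. The LacZ/LacZ columns lay inside the range of +/+, and the log2 fold change was 0.06 (-0.21 to 0.34, exact permutation p = 0.8) in LacZ/LacZ and 0.11 (-0.16 to 0.38, exact permutation p = 0.6) in LacZ/+ over +/+. *Glul* (ENSMUSG00000026473, chr1:153899944-153909723, + strand) encodes glutamine synthetase, which turns glutamate into glutamine. Its values were 385, 385 and 464 in the +/+ columns, 463, 397 and 379 in the LacZ/+ columns and 445, 444 and 379 in the LacZ/LacZ columns. Each genotype held values near both ends of the range, and the highest was 1.23 times the lowest, the narrowest range of the 10 genes. The log2 fold change over +/+ was 0.04 (-0.24 to 0.32) in LacZ/LacZ and 0.01 (-0.28 to 0.29) in LacZ/+, each with an exact permutation p of 1.

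**Figure D2:**
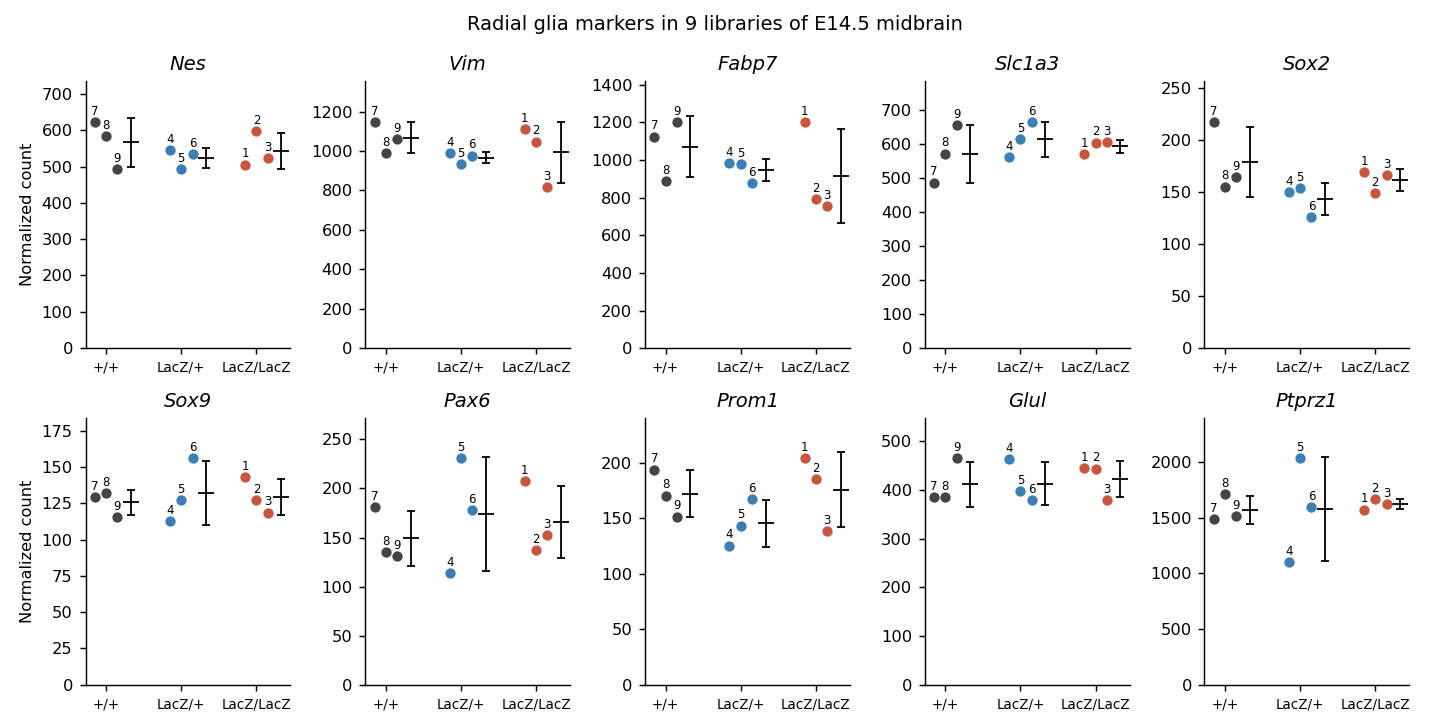
Normalized count (y axis, from 0) of each of the 10 markers by genotype (x axis), with a point for each library numbered by its column and, beside the points, the mean with bars of 1 SD (n = 3). *Sox2* in LacZ/+ is the 1 case where all 3 points lie below those of +/+, and the spread within LacZ/+ is wide in *Pax6* and *Ptprz1*.

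Of the transcription factors, *Sox2* showed the largest log2 fold change of the 10 genes with all 9 libraries, that of LacZ/+ over +/+. In that comparison *Pax6* exceeded it in size without column 4 (0.45 beside -0.35) and without column 7 (0.33 beside -0.16). *Sox2* (ENSMUSG00000074637, chr3:34650405-34652461, + strand) maintains the progenitor state. It had 217, 155 and 164 in the +/+ columns, 149.9, 154 and 126 in the LacZ/+ columns and 169, 149 and 166 in the LacZ/LacZ columns. All 3 LacZ/+ columns were below all 3 +/+ columns, although columns 5 and 8 were only 154 and 155, and the LacZ/LacZ columns overlapped with both. LacZ/+ had a mean of 143 ± 15.2 (SD, n = 3) and +/+ of 179 ± 33.6 (SD, n = 3), a log2 fold change of -0.31 (-0.66 to 0.04) with an exact permutation p of 0.1, the smallest possible, and a limma adjusted p of 1.00. The highest value, 217, was that of column 7, which rests on 84 reads in the shallowest library. The log2 fold change was -0.16 without column 7, and -0.40 without column 8, with an unadjusted limma p under 0.05 (adjusted p = 1.00). LacZ/LacZ over +/+ was -0.14 (-0.48 to 0.21, exact permutation p = 0.6), and 0.01 without column 7. *Sox2* lies inside an intron of the long noncoding gene *Sox2ot*, with which it shares no exon and which had 60 to 209 reads.

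*Sox9* (ENSMUSG00000000567, chr11:112782224-112787760, + strand) is a factor of neural stem cells that also prepares the switch from neurons to glia. It had 129, 132 and 116 in the +/+ columns, 112, 127 and 156 in the LacZ/+ columns and 143, 127 and 119 in the LacZ/LacZ columns. The values of LacZ/LacZ and of +/+ were interleaved, and LacZ/+ held both the lowest and the highest of the 9. The log2 fold change over +/+ was 0.04 (-0.31 to 0.40, exact permutation p = 0.8) in LacZ/LacZ and 0.06 (-0.30 to 0.41, exact permutation p = 0.9) in LacZ/+. *Sox9* had the fewest reads of the 10 genes, 50 to 191 per library, and its SD within genotypes of 0.17 (log2) was little above the 0.13 that counting of reads alone would give.

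*Pax6* (ENSMUSG00000027168, chr2:105668900-105697364, + strand), a paired-box factor known from progenitors of the forebrain and from the border of diencephalon and midbrain, was the most variable marker. It had 181, 135 and 131 in the +/+ columns, 114, 231 and 178 in the LacZ/+ columns and 208, 137 and 153 in the LacZ/LacZ columns. The highest value was 2.02 times the lowest, and both were in LacZ/+, in columns 5 and 4. Over +/+, the log2 fold change was 0.15 (-0.35 to 0.64, exact permutation p = 0.5) in LacZ/LacZ and 0.18 (-0.31 to 0.67, exact permutation p = 0.7) in LacZ/+. The LacZ/+ value was 0.45 without column 4 and 0.60 without columns 4 and 7, both with an unadjusted limma p under 0.05. Adjusted over all genes tested, the limma p was 0.844 and 0.756. Without column 5 it was -0.05.

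Some genes of neighbouring brain areas also varied between these libraries, in different orders. The homeobox gene *Dlx1*, singled out after its values were seen, had 0 in column 4, where *Pax6* was lowest, 61.5 in column 5, where *Pax6* was highest, and 11.9 and 4.42 in columns 2 and 9. In columns 1, 3, 6, 7 and 8 it had 44.9 to 69.3. *Dlx2* was at 0 in columns 2 and 4. Other genes of the same list ran the other way, *Emx1* with its highest value of 16.3 in column 4 and 3.42 in column 5, and *Six3* with 161 in column 4 and its lowest value of 93.9 in column 5. Of the 10 genes listed for forebrain and diencephalon, 8 were tested and 0 had a p under 0.05 in any comparison. Their summed normalized count, led by *Lhx9*, was 1542 to 1625 in +/+, 1263 to 1829.9 in LacZ/+ and 1355 to 1632 in LacZ/LacZ, lowest in column 4 and highest in column 6. Their part in the values of *Pax6* was not tested.

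Over the whole set, 0 of the 10 markers passed an adjusted p of 0.05 in any of the 3 comparisons, and 0 of the 16993 genes tested did so with limma, a share of 0% in each comparison. With an unadjusted p under 0.05 there were also 0 of 10 in each, against 2.6% of all genes tested in LacZ/LacZ over +/+, 2.78% in LacZ/+ over +/+ and 2.64% in LacZ/LacZ over LacZ/+. edgeR and DESeq2 on the recovered reads likewise gave 0 of 10 in each, and over all genes edgeR called 0 and DESeq2 1 with an adjusted p under 0.05, the latter in LacZ/+ over +/+ and not a marker. Values that do not overlap between 2 genotypes were seen in 0 of 10 markers for LacZ/LacZ over +/+, in 1 of 10 (*Sox2*, lower) for LacZ/+ over +/+ and in 0 of 10 for LacZ/LacZ over LacZ/+. Among all genes tested these shares were 9.52%, 6.91% and 8.71%. The 10 log2 fold changes of LacZ/LacZ over +/+ lay between -0.25 (*Fabp7*) and 0.15 (*Pax6*), with 6 above 0, 4 below 0 and a median of 0.03 beside 0.01 for all genes. Those of LacZ/+ over +/+ lay between -0.31 (*Sox2*) and 0.18 (*Pax6*), with a median of -0.07 beside -0.01 for all genes, and those of LacZ/LacZ over LacZ/+ between -0.08 (*Fabp7*) and 0.26 (*Prom1*), with a median of 0.03 beside 0.02. Taken without sign, the median log2 fold change of the markers was 0.06, 0.12 and 0.05 in the same order, and that of the 7500 genes with a mean of at least 100 was 0.09, 0.08 and 0.10. The comparisons share libraries, so that they are not independent of each other.

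**Figure D3:**
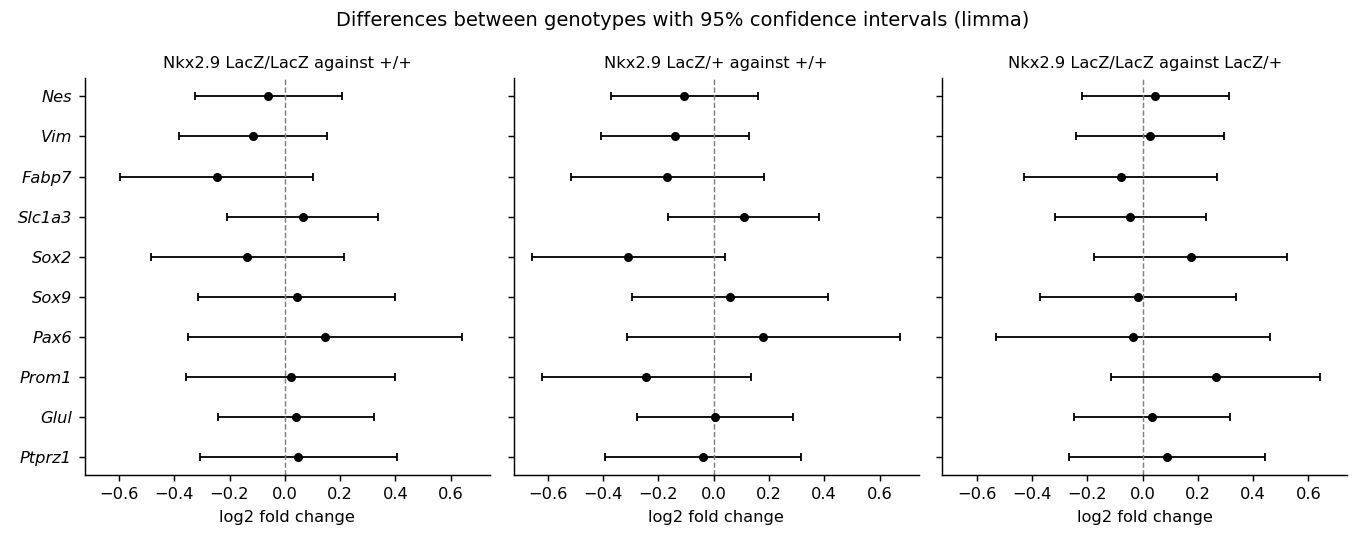
Log2 fold change (x axis) of each marker (y axis) in the 3 comparisons of genotypes, with 95% confidence intervals from limma over all 9 libraries. All intervals include 0, and the intervals of *Nes* are among the narrowest and those of *Pax6* the widest.

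The intervals show which sizes of change these libraries leave possible. For *Nes*, LacZ/LacZ embryos could have between 0.798 and 1.15 times the level of +/+, and for *Vim* between 0.768 and 1.11 times. *Slc1a3* had bounds of 0.865 and 1.26 and *Glul* of 0.845 and 1.25. The bounds were wider for *Fabp7*, 0.661 to 1.07, and widest for *Pax6*, 0.785 to 1.56. A fall to 0.5 times the level of +/+ lies outside the intervals of all 10 genes. These bounds follow the column labels, and each becomes its inverse if the +/+ and LacZ/LacZ labels are exchanged. No upper bound was above 1.56, so that a fall to 0.5 times would then also lie outside. A p that misses the threshold does not show that the genotypes are alike, and changes smaller than these bounds, or in few of the cells, could not be resolved with these libraries.

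The variation that was seen lay between libraries of a genotype. The SD within genotypes on the log2 scale was largest for *Pax6* at 0.37, above that of 95.9% of the 7500 genes with a mean of at least 100. It was 0.27 for *Ptprz1*, 0.26 for *Fabp7* and 0.23 for *Prom1*, and lowest for *Nes* at 0.13. The median of the 10 markers was 0.18, as it was for the 7500 genes. Counting of reads alone would give 0.04 for *Ptprz1*, 0.05 for *Fabp7* and 0.12 for *Pax6*, less than the spread that was seen. Column 4 was the lowest library for 4 of the 10 genes (*Sox9*, *Pax6*, *Prom1* and *Ptprz1*) and column 7 the highest for 3 (*Nes*, *Vim* and *Sox2*). Without column 4 the SD of *Ptprz1* was 0.13 and that of *Pax6* 0.28, whereas that of *Fabp7* was 0.28.

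**Figure D4:**
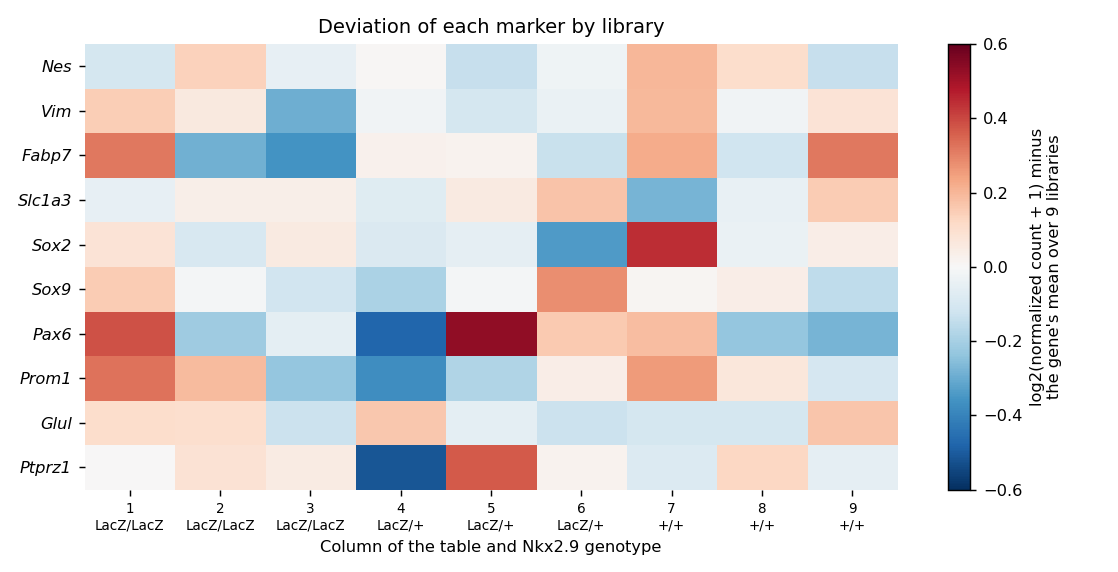
Deviation of each marker (rows) from its own mean over the 9 libraries, on the log2(normalized count + 1) scale, in each column of the table (x axis, with its genotype), with red for higher and blue for lower. Rows do not share a pattern by genotype, column 4 is low in *Pax6* and *Ptprz1*, column 5 is high in both, and column 7 is high in *Sox2*.

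Summed over the 10 markers, the normalized count was 5976, 5725 and 5953 in the +/+ columns, 5145, 6104 and 5655 in the LacZ/+ columns and 6135, 5753 and 5281 in the LacZ/LacZ columns. The genotypes overlapped, and the highest sum, in column 1, was 1.19 times the lowest, in column 4. The means were 5885 ± 139 in +/+, 5635 ± 480.0 in LacZ/+ and 5723 ± 428 in LacZ/LacZ (SD, n = 3), so that LacZ/LacZ had 0.972 times and LacZ/+ 0.958 times the sum of +/+. Scaled by total reads instead of size factors these ratios were 0.990 and 0.968. The dissected tissue also holds many neurons. The 12 genes of postmitotic neurons, led by the microtubule protein gene *Map2*, summed to 32161 to 34884 in +/+, 29776 to 35996 in LacZ/+ and 33882 to 34012 in LacZ/LacZ. Per 100 counts of these neuron genes the radial glia markers had 16.4 to 18.6 counts in +/+, 15.7 to 17.3 in LacZ/+ and 15.5 to 18.1 in LacZ/LacZ, again overlapping.

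A second list of 25 genes known from radial glia and the ventricular zone, among them targets of Notch signalling, further SOX factors and matrix proteins, was followed beside the 10 markers. All 25 were tested, and 0 had a p under 0.05 in any of the 3 comparisons. In LacZ/LacZ 16 of the 25 were below and 9 above +/+, with a median log2 fold change of -0.07 and a range from -0.60 to 0.55. Over all genes tested 52.3% were above +/+ in this comparison, with a median of 0.01. *Sox1*, a SOXB1 factor like *Sox2*, and *Mfge8*, a secreted glycoprotein gene, were the 2 whose LacZ/LacZ values all lay below +/+, with log2 fold changes of -0.22 and -0.37 and the smallest possible exact permutation p of 0.1 for both. Over all genes tested, 9.52% did not overlap in this comparison. In LacZ/+ the Notch target *Hes1*, with a mean of 26.8 ± 3.62 against 33.7 ± 3.51, and *Gli3*, a factor of Hedgehog signalling, with 128 ± 29.3 against 153 ± 4.59 (SD, n = 3), lay below +/+ without overlap. Both were near ties, *Hes1* with 29.9 in column 5 and 30.2 in column 9, and *Gli3* with 147.7 in column 6 and 148.0 in column 9. The low mean of *Gli3* lay mainly in column 4, at 94.5. In LacZ/+ over +/+ 6.91% of all genes did not overlap, and a count of 2 in 25 is close to either share. The sum of the list, led by the proteoglycan gene *Ncan*, was 14213 to 15087 in +/+, 14371 to 14669 in LacZ/+ and 13711 to 14647 in LacZ/LacZ.

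Progenitors divide, and the 10 genes of dividing cells, led by the cyclin gene *Ccnd1*, summed to 781 to 878 in +/+, 699 to 977 in LacZ/+ and 836 to 938 in LacZ/LacZ. In this list *Ccna2*, a cyclin of S phase and mitosis, had a log2 fold change of -0.83 in LacZ/+ over +/+, with an unadjusted limma p under 0.05 (adjusted p = 1.00) and an exact permutation p of 0.2. Its values in LacZ/+ were 14.7 in column 4, 43.5 in column 5 and 57.9 in column 6, and in +/+ 72.4, 51.9 and 58.2, so that the difference lay mainly in column 4. The other 9 genes had a p above the threshold in all 3 comparisons.

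**Figure D5:**
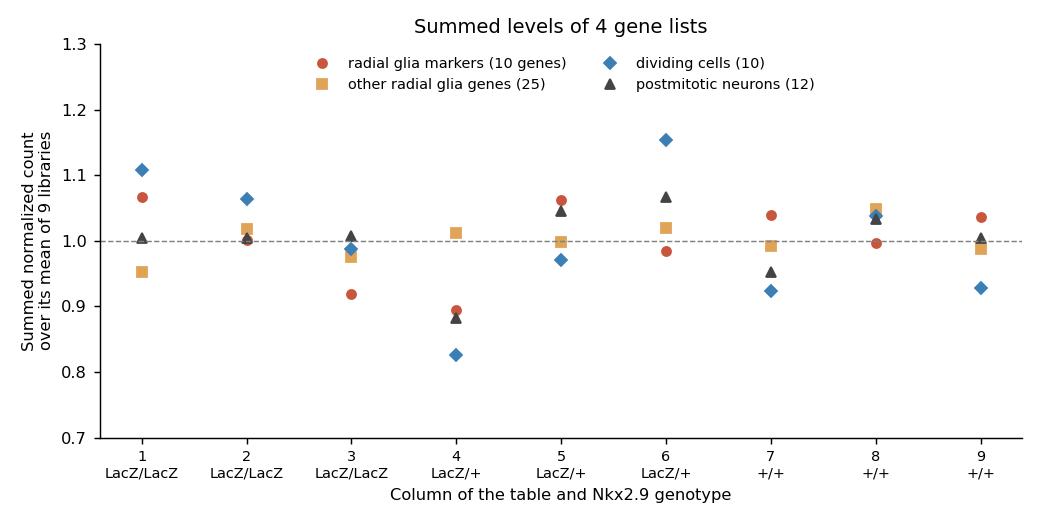
Summed normalized count of 4 gene lists in each library, divided by the mean of that list over the 9 libraries (y axis), by column and genotype (x axis). Column 4 is lowest in the radial glia markers, the dividing cell genes and the neuron genes, and the LacZ/LacZ columns 1 to 3 span most of the range of the markers.

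Several markers are shared with later glia, and the 7 genes listed for astrocytes ranged widely in level. *Slc1a2*, a glutamate transporter gene, *Sparcl1* and *Aldh1l1* had means of 1801, 541 and 227 over the 9 libraries. *Gfap*, the filament gene of mature astrocytes, was at 0 in 7 of 9 columns with a mean of 0.396, and the water channel gene *Aqp4* was at 0, 7.72 and 7.36 in the +/+ columns, 0, 8.54 and 8.16 in the LacZ/+ columns and 9.79, 13.7 and 8.59 in the LacZ/LacZ columns. Its LacZ/LacZ values lay above all 6 others, with a log2 fold change of 1.46 over +/+ (exact permutation p = 0.1, limma adjusted p = 1.00). This value rests on the 0 of column 7, the shallowest library, where 1 read is worth 2.59, and it was 0.43 without that column. The log2 fold change over LacZ/+ was 1.37 and was 0.30 without column 4, which held the other 0. The sum, led by *Slc1a2*, was 2506 to 2673 in +/+, 2301 to 2726 in LacZ/+ and 2554 to 2852 in LacZ/LacZ, and 0 of the 5 genes tested had a p under 0.05. Of the 5 genes of oligodendrocyte precursors, *Olig1* had a log2 fold change of -0.40 in LacZ/LacZ over +/+, with an unadjusted limma p under 0.05 (adjusted p = 1.00) and an exact permutation p of 0.1. The sum of that list was 327 to 372 in +/+, 269 to 376 in LacZ/+ and 266 to 318 in LacZ/LacZ, with none of the 5 at 0 in any library.

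Other tissue in the dissection was followed by its own genes. The 8 genes of endothelium and pericytes, led by *Rgs5*, summed to 990.5 to 1196 in +/+, 1069 to 1195 in LacZ/+ and 1052 to 1209 in LacZ/LacZ, and the 5 microglia genes, led by *Csf1r*, to 78.0 to 93.1, 68.5 to 78.2 and 77.3 to 107.9. The red blood cell genes, 7 globins led by *Hba-a1*, summed to 1427 to 2113, 1555 to 2215 and 1493 to 1827 in the same order. None of the tested genes of these 3 lists had a p under 0.05. The fibroblast genes of the meninges, led by *Col3a1*, summed to 212 to 319 in +/+, 173 to 198 in LacZ/+ and 172 to 269 in LacZ/LacZ, and *Col1a1* had a log2 fold change of -0.77 in LacZ/+ over +/+ (exact permutation p = 0.1, limma adjusted p = 1.00). The 5 genes of the choroid plexus, which also borders the ventricle, summed to 35.1 to 75.0, 16.3 to 39.2 and 17.3 to 34.4. *Kl*, the highest of them, had a log2 fold change of -1.25 in LacZ/LacZ over +/+ (exact permutation p = 0.1, limma adjusted p = 1.00), while *Clic6* and *Folr1* were at 0 in column 4. Of the 8 genes of midbrain and isthmus, *Pax7* and *En1* had log2 fold changes of -0.63 (exact permutation p = 0.2) and -0.60 (exact permutation p = 0.1) in LacZ/LacZ over +/+, and *En2* had -0.44 (exact permutation p = 0.1). The doubt about the +/+ and LacZ/LacZ labels covers these 3 directions as it covers every other fold change of LacZ/LacZ over +/+. The sign of each turns if the labels are exchanged. The unadjusted limma p was under 0.05 for *Col1a1*, *Kl*, *Pax7* and *En1* alike, and the adjusted p was 1.00. That list, led by *En2*, summed to 1451 to 1513 in +/+, 1171 to 1822 in LacZ/+ and 1189 to 1345 in LacZ/LacZ, highest in column 4. The part of these tissues in the marker values was not tested.

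The profile of the set over the libraries was flat. The median over the 10 markers of the deviation from each gene's own mean was highest in column 7, at 0.19 (log2), and 0.13 in column 1, and lay between -0.09 and 0.05 in the other 7. Of 7490 other genes with a mean of at least 100, the 5 closest to this median profile over the 9 libraries were *Hdac3*, *Tpm3*, *Prpsap2*, *Ap2m1* and *Wrb*, with root mean square distances of 0.0479 to 0.0513 (log2), against a median of 0.189 for all of them. The markers, which make up this profile, had distances from it of 0.0834 for *Vim* to 0.289 for *Pax6*. *Slc1a3*, *Fabp7*, *Ptprz1* and *Pax6* were farther than the median of the other genes, and the remaining markers were nearer. The 5 closest genes were picked by this distance, so that their lying nearer than the markers says nothing about the markers.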

How the data were processed

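RNA of dissected E14.5 midbrain was sequenced in 9 libraries, 3 per genotype. Per the paper's methods, the authors isolated RNA with a column kit, depleted ribosomal RNA, and sequenced paired ends of 100 bases. Hisat2 served for alignment to GRCm38/mm10 and featureCounts for the counts per gene. The labels describe a phenol-based isolation and an mRNA protocol, and the title of the data set names cortex where the labels name midbrain. Tool versions and the strand setting are not given in the sources used here. The deposited signal is a normalized count, made by the authors with 1 DESeq2 size factor per library. Their tables of comparisons (fold changes, test statistics and p-values) were not used.

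The genotype in a column's name set its group. Values were whole multiples of the value of 1 read for 100% of the 210686 values above 0 (tolerance 0.001 reads), which gave the reads per gene. Of 51912 identifiers 51633 matched the annotation. limma 3.58.1 (R 4.3.3, lmFit and eBayes with a trend) was run on log2(normalized count + 1) of all 9 libraries without covariates, two-sided, with p-values adjusted after Benjamini and Hochberg over 16993 genes, those with a mean of at least 5. Fold changes are on this scale, which slightly understates changes of low genes. Exact permutation tests compared 3 libraries with 3. On the recovered reads edgeR 4.0.16 called 421, 372 and 451 genes with an unadjusted p under 0.05 (0 adjusted) in LacZ/LacZ over +/+, LacZ/+ over +/+ and LacZ/LacZ over LacZ/+, and DESeq2 1.42.0 called 316, 264 and 323 (1 adjusted, in LacZ/+). The fits were tested on simulated data. Figures were drawn with matplotlib 3.10.9.

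The markers, the 12 other gene lists and the tests were chosen with earlier results of these data known, and lists come from general knowledge. Named beside the 10 markers were *Nkx2-9*, of each other list up to 3 genes per comparison with an unadjusted p under 0.05, the highest marker of each list and the 5 genes closest in profile. *Xist*, *Otx2*, *Dlx1*, *Dlx2*, *Emx1*, *Six3*, *Gfap*, *Aqp4*, *Sparcl1*, *Aldh1l1*, *Clic6*, *Folr1*, *Sox1*, *Mfge8*, *Hes1*, *Gli3* and *Sox2ot* were named after their values were seen. The alternatives were pseudocounts of 0.5 and 5, no minimum or a minimum of 20, the libraries of 2 genotypes only, upper-quartile, quantile and total-read scaling, no trend, edgeR, DESeq2 and leaving out each library. Total reads or *Xist* as a covariate, leaving out columns 4 and 7 together and the length of the longest transcript were added after seeing the data.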

Additional observations from a re-analysis of the deposited data

How the results depend on the processing

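With 3 libraries per genotype, changes smaller than the 95% intervals could not be resolved. Counting of reads alone gives an SD of 0.13 (log2) for *Sox9* and 0.12 for *Pax6*, whose SDs within genotypes were 0.17 and 0.37. No paired analysis was possible because the columns carry no replicate numbers. Leaving out a library of a genotype compared gave 180 fold changes of markers, of which 139 kept their direction and side of the threshold, and the 10 other alternatives that can move a fold change gave 300, of which 280 did. Leaving out a library of the third genotype, both other minimums, no trend and the libraries of 2 genotypes only leave the fold change as it is and could alter only its p, which crossed the threshold in none of these. The cause of the differences below was not tested. The count of markers with an unadjusted p under 0.05, 0 in each comparison, ranged from 0 to 1 in each when a library was left out, and was 1 (*Pax6*) for LacZ/+ over +/+ without columns 4 and 7. It was 0 under every other alternative.

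Over all genes, 441, 473 and 449 had an unadjusted p under 0.05 in LacZ/LacZ over +/+, LacZ/+ over +/+ and LacZ/LacZ over LacZ/+. These counts were 1135, 1137 and 1132 with no minimum, 263, 242 and 288 with a minimum of 20, where more or fewer genes are tested, and 703, 852 and 971 without columns 4 and 7, where 6 genes passed the adjusted threshold in the first comparison. For LacZ/+ over +/+ the count was 280 in the libraries of the 2 genotypes only, 264 with DESeq2, 790 with total reads and 298 with *Xist* as a covariate. Leaving out a library gave 283 (without column 2) to 827 (without column 8), 375 (without column 2) to 933 (without column 4) and 293 (without column 2) to 740 (without column 5). Without column 4 the first count was 767 and without column 3 it was 291. In LacZ/LacZ over LacZ/+ it was 296 without column 3 and 687 without column 6.

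The directions that turned were those of log2 fold changes whose unadjusted p was above 0.05 with all 9 libraries. In LacZ/+ over +/+, *Glul* was -0.010 with edgeR, -0.0098 with DESeq2, -0.066 with *Xist* as a covariate and -0.12 without columns 4 and 7, and *Ptprz1* was 0.0059, 0.0050 and 0.16 with edgeR, with DESeq2 and without columns 4 and 7. In LacZ/LacZ over +/+, *Ptprz1* was -0.025 and *Slc1a3* -0.0013 with total reads as a covariate, *Prom1* was -0.081 and *Sox9* -0.054 with *Xist*, and *Glul* was -0.0048, *Sox2* 0.012, *Nes* 0.013 and *Slc1a3* -0.046 without columns 4 and 7. In LacZ/LacZ over LacZ/+, *Nes* was -0.094, *Fabp7* 0.070 and *Slc1a3* 0.023 with *Xist*, and *Ptprz1* was -0.15 without columns 4 and 7.

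Leaving out each library in turn turned the direction in these ranges. In LacZ/LacZ over +/+ they were -0.16 to 0.013 for *Nes*, -0.20 to 0.019 for *Vim*, -0.046 to 0.17 for *Slc1a3*, -0.23 to 0.012 for *Sox2*, -0.030 to 0.10 for *Sox9*, -0.027 to 0.29 for *Pax6*, -0.095 to 0.18 for *Prom1* and -0.0062 to 0.13 for *Glul*. In LacZ/+ over +/+ they were -0.0016 to 0.21 for *Slc1a3*, -0.068 to 0.17 for *Sox9*, -0.050 to 0.45 for *Pax6*, -0.080 to 0.095 for *Glul* and -0.24 to 0.20 for *Ptprz1*. In LacZ/LacZ over LacZ/+ they were -0.026 to 0.096 for *Nes*, -0.062 to 0.16 for *Vim*, -0.29 to 0.045 for *Fabp7*, -0.11 to 0.016 for *Slc1a3*, -0.12 to 0.11 for *Sox9*, -0.31 to 0.20 for *Pax6*, -0.025 to 0.12 for *Glul* and -0.15 to 0.29 for *Ptprz1*.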
